A study of Mus musculus with 4 samples.

Results

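The genes described here are Hmgcs1, Idi1, Fdps, Fdft1, Sqle, Lss and Insig1, a set of 7 members chosen by symbol as targets of the transcription factor SREBP2 and found in full among the 12584 genes of the deposited count matrix. The set was proposed under the name cholesterol synthesis and uptake, but it holds 6 enzymes of sterol synthesis and the regulator Insig1, and no gene of uptake. Genes of uptake and other sterol genes are therefore given from lists outside the 7. RNA was profiled in single CD45+ cells, sorted out of melanomas grown from the YUMM1.7-OVA RTT line, a mouse line that had acquired resistance to MAPK pathway inhibitors. All tumours grew in young adult Rag2-/- mice, which have no T or B cells of their own, and all mice received adoptive cell transfer (ACT) of OT-1 T cells on day 7, with collection on day 10, 72 h later. CTRL tumours carried an empty vector with mCherry and puromycin resistance. IRF3/7 tumours overexpressed the interferon regulatory factors IRF3 and IRF7 in the cancer cells, under a viral promoter. COX2i tumours were mCherry tumours in mice given celecoxib, an inhibitor of the prostaglandin-producing enzyme cyclooxygenase 2, and COX2i + 5-AZA tumours came from mice that received the DNA methylation inhibitor 5-azacytidine as well.

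Each of the 4 groups was 1 library, pooled from 3 tumours, so no difference between groups could be tested. Every interval below is a 95% exact interval that covers counting error only, and says nothing about the spread between mice. The libraries held 6329 to 10032 cells and 26356819 to 78722763 UMIs (unique molecular identifiers, counted RNA molecules). The IRF3/7 library was the shallowest, with a median of 3168 UMIs per cell against 6039.5 to 7502 in the others. No full cell barcode occurred in more than 1 library, whereas 4830 of 29259 droplet barcodes (16.5%) held cells of at least 2 libraries, which were run together with separate probe barcodes. Levels are CPM, a gene's UMIs summed over the cells of a group and scaled to a common total of 1000000 UMIs, and the authors' class names are used as deposited. Marker genes followed most of the names: the macrophage list was highest in TAM_C1q, the monocyte and inflammatory lists in Infl_Mono and the neutrophil list in Neutro. The conventional dendritic cell (cDC) list was highest in cDC2 and the non-immune list in Myofibrobl, a class that remained after the CD45+ sort. The cell cycle list was highest in T_CD8, at 3660 CPM, and next in TAM_cycling, at 2909. The melanoma list, of which only 2 genes, Pmel and Mitf, were in the matrix, was highest in Mast, at 272. In CTRL monocytes and macrophages that list was at 70.8 CPM, of which Mitf had 70.4. T_CD8 and Mast had fewer than 50 cells in every library.

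Animal cells build cholesterol from acetyl-CoA through mevalonate, isoprenoid pyrophosphates, squalene and lanosterol. When sterol in the endoplasmic reticulum is low, the escort protein Scap carries SREBP2 to the Golgi, where it is cut by the proteases encoded by Mbtps1 and Mbtps2. The released factor enters the nucleus and turns on the synthesis enzymes and genes of uptake. Insig1 holds Scap and SREBP2 back when sterol is plentiful, and its own gene is a target of SREBP2. Macrophages also take up much cholesterol from dying cells and lipoproteins and export it through Abca1 and Abcg1. Interferon signalling and oxysterols made by Ch25h are known to lower sterol synthesis in macrophages.

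All 7 members are protein-coding genes. Positions on GRCm38 were taken from GENCODE M21. Hmgcs1, which makes HMG-CoA, lies on chromosome 13 from 119690379 to 119708260, plus strand. Idi1, which isomerises isopentenyl pyrophosphate, lies on chromosome 13 from 8885501 to 8892451, plus strand. Fdps, which makes farnesyl pyrophosphate, lies on chromosome 3 from 89093588 to 89101959, minus strand. Fdft1, which joins farnesyl units into squalene, lies on chromosome 14 from 63145150 to 63179578, minus strand. Sqle, which oxidises squalene, lies on chromosome 15 from 59315077 to 59331192, plus strand. Lss, which folds that product into lanosterol, lies on chromosome 10 from 76531588 to 76557138, plus strand. Insig1 lies on chromosome 5 from 28071363 to 28078662, plus strand.

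RefSeq promoter windows (GRCm38.p6, from 250 bases before to 50 bases after the gene start) were at hand for 4 members, Hmgcs1, Idi1, Lss and Insig1. They were searched on both strands for TCACNCCAC, the sterol regulatory element recognised by SREBP, and for CCAAT, the site of the co-factor NF-Y; the motifs did not overlap. The sterol element occurred in 1 of the 4 windows, that of Hmgcs1, and in 1.24% of all 32851 windows. The CCAAT letters occurred in all 4 windows, and in 37.4% of all windows. Among the 21 genes of sterol synthesis, 16 had a window and only that of Hmgcs1 held the sterol element. The following stretches lie before the gene start, on the plus strand, and show the motifs in capitals, with ATTGG as the reverse complement of CCAAT. They are shown because these are the regulatory letters the members could share.
Hmgcs1, chr13:119690201-119690350: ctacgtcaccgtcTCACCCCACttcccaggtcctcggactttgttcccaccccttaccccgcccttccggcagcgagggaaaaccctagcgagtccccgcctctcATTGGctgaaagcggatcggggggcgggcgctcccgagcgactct
Lss, chr10:76531505-76531584: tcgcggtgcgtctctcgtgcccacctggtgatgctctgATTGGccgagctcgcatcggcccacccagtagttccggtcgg
Insig1, chr5:28071162-28071241: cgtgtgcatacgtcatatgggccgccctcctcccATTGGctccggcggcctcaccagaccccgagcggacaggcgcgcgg
The Hmgcs1 element began 137 bases before the RefSeq start used for its window, which differs from the GENCODE start given above. A window without these exact letters says nothing about binding elsewhere.

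Monocytes and macrophages, a union of 9 deposited classes, made up most cells of every library and were used for the main comparisons. Their summed level of the 7 members was 278 CPM (274 to 283) in CTRL, 188 (181 to 194) in IRF3/7, 510 (504 to 515) in COX2i and 531 (525 to 536) in COX2i + 5-AZA. Both celecoxib libraries thus stood above CTRL, and IRF3/7 below it, with no overlap of the counting intervals. Because each gene is read by its own probes, levels are compared for a gene between libraries and never between genes.

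Hmgcs1 had 59.5 CPM in CTRL, 30.4 in IRF3/7, 89.1 in COX2i and 88.9 in COX2i + 5-AZA. Idi1 had 12.7, 6.16, 27.6 and 25.5 CPM in the same order. Fdps had 47.6, 23.1, 135 and 140 CPM. These 3 enzymes, from HMG-CoA to farnesyl pyrophosphate, were lowest in IRF3/7 and highest in the celecoxib libraries, with Fdps the most different between celecoxib and CTRL. Fdft1 had 22.0, 12.0, 44.5 and 44.9 CPM. Sqle had 23.8, 5.43, 63.8 and 50.9 CPM. Lss had 7.68, 1.29, 14.7 and 11.5 CPM, and rested on only 23 UMIs in IRF3/7. The 3 enzymes of the squalene and lanosterol steps kept the same order of CTRL between IRF3/7 and celecoxib, and Sqle and Lss were lower with 5-azacytidine than with celecoxib alone. Insig1 departed from this order, with 105 CPM in CTRL, 109 in IRF3/7, 134 in COX2i and 169 in COX2i + 5-AZA. Insig1 held 37.8% of the summed UMIs in CTRL and 58.3% in IRF3/7, so it weighed heavily on the sum.

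**Figure D1:**
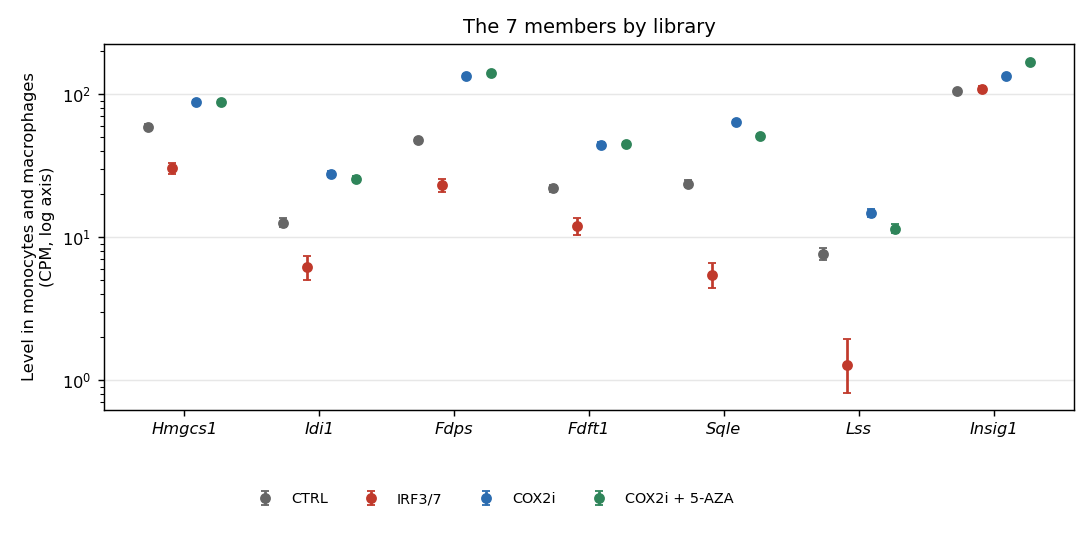
Level of each of the 7 members in the monocytes and macrophages of each library, in CPM on a log axis, with bars for the 95% exact Poisson interval (1 library per group; small bars lie within the points). The 6 enzymes were lowest in IRF3/7 and higher in both celecoxib libraries than in CTRL, whereas Insig1 was 105 in CTRL and 109 in IRF3/7.

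The comparison of COX2i with CTRL asks what celecoxib changed in the cells of these tumours. All 7 members were higher with celecoxib. The log2 ratio was 1.51 (1.44 to 1.57) for Fdps, a 2.84-fold difference, 1.42 (1.33 to 1.51) for Sqle and 1.12 (1.00 to 1.25) for Idi1. It was 1.02 for Fdft1, 0.94 for Lss, 0.58 (0.52 to 0.65) for Hmgcs1 and 0.36 (0.31 to 0.40) for Insig1. Past 1.5-fold, 5 of 7 members were higher and none lower, where 6.31% of the 10522 genes with at least 200 UMIs in these libraries were higher and 7.04% lower. Hmgcs1 lay just under that fold, at 1.498. The median log2 ratio was 1.02 over the members and 0.03 over all genes counted.

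The higher level was seen within every class represented in each library by 50 cells or more. The summed level was 455 CPM in COX2i and 242 in CTRL for TAM_C1q, macrophages marked by complement C1q. It was 656 and 377 CPM for TAM_Spp1, macrophages marked by osteopontin, and 495 and 261 CPM for TAM_cycling, the dividing macrophages. Ctsk_Macro, with the osteoclast protease cathepsin K, had 596 and 309 CPM. These macrophage classes thus differed from CTRL by a similar factor, 1.74 to 1.93. The factor was 2.30 in Infl_Mono, with 593 and 258 CPM (130 and 93 cells), and 2.09 in cDC2, with 786 and 376 CPM. The non-immune class Myofibrobl had 1318 and 950 CPM, the smallest log2 ratio of the 7 classes at 0.47 (0.43 to 0.51). The largest was 1.20 (0.90 to 1.50), in Infl_Mono. Of the 49 pairs of a member and a class, 49 were higher with celecoxib and 47 of them beyond the counting interval. Of genes with at least 200 UMIs in a class, 49.3% to 61.4% were higher, depending on the class. The share of those genes beyond the counting interval was not computed. The median gene of these classes lay between 0.00 and 0.09 on the log2 scale in size.

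Among single members, Fdps was higher in all 7 classes, from 0.55 in Myofibrobl to 2.03 in Infl_Mono on the log2 scale. In TAM_C1q it had 115 CPM with celecoxib and 39.7 in CTRL, and in TAM_Spp1 158 and 57.8 CPM. Sqle ranged from 0.31 in Myofibrobl to 1.80 in Infl_Mono. Hmgcs1 ranged from 0.52 in TAM_cycling to 1.18 in cDC2. Insig1 ranged from 0.03 in TAM_Spp1 to 0.66 in TAM_cycling, where the ratio of Hmgcs1, at 0.52, was below it. In TAM_Spp1 Insig1 had 177 CPM with celecoxib and 174 in CTRL, a log2 ratio of 0.03 (-0.08 to 0.13), whereas the 6 enzymes were higher there beyond the counting interval.

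**Figure D2:**
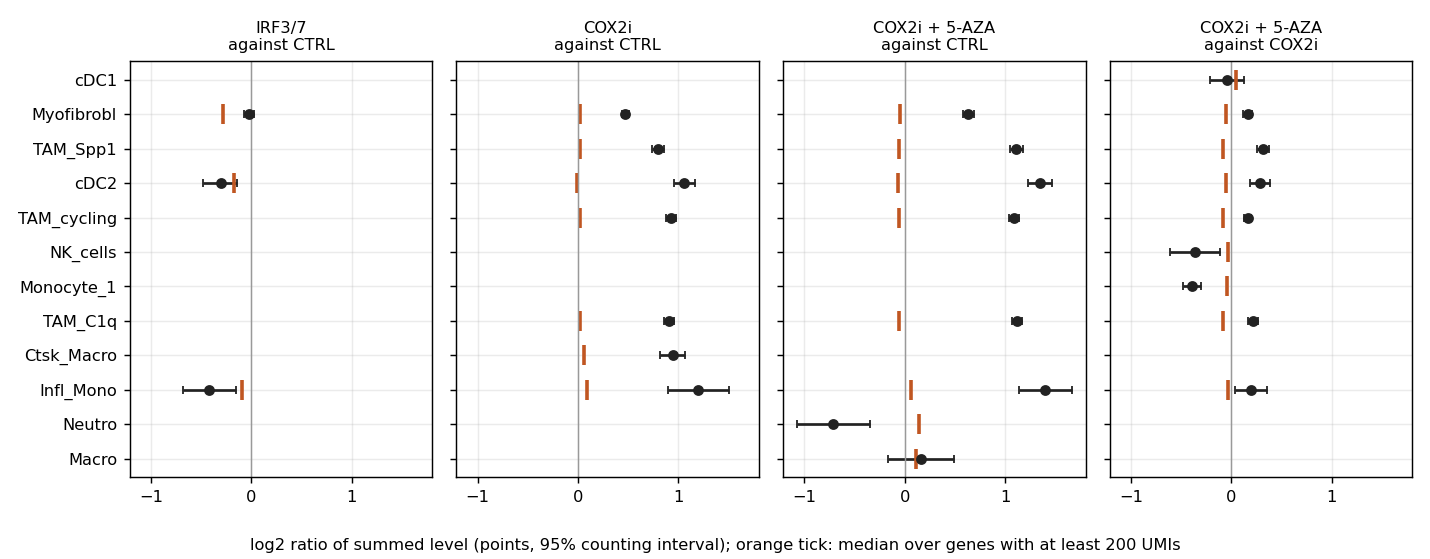
Log2 ratio of the summed level of the 7 members in each class for which the compared libraries held 50 cells or more apiece, for 4 comparisons (points with 95% exact counting intervals; orange ticks are the median over genes with at least 200 UMIs in that class; 1 library per group). All 7 classes of COX2i against CTRL lie between 0.47 and 1.20, and Neutro lies at -0.71 in COX2i + 5-AZA against CTRL.

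COX2i + 5-AZA was next set against the same CTRL library, so both comparisons share its counting error. All 7 members were again higher in monocytes and macrophages. Fdps had a log2 ratio of 1.56 (1.50 to 1.62), Sqle 1.10, Fdft1 1.03 and Idi1 1.01. Insig1, at 0.69 (0.64 to 0.73), was past 1.5-fold, while Hmgcs1 and Lss, at 0.58 each, were just under it. In all, 5 of 7 were higher past 1.5-fold and none lower, where 7.64% of 10508 genes were higher and 16.5% lower. The median log2 ratio was 1.01 over the members and -0.15 over those genes. Scaling instead by the median of all genes detected in both libraries, which lay at -0.16, put all 7 members past 1.5-fold.

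By class, the summed level was higher than in CTRL in 7 of 8 classes, and beyond counting error in 6. It was 528 CPM against 242 in TAM_C1q, 815 against 377 in TAM_Spp1, 555 against 261 in TAM_cycling and 957 against 376 in cDC2. The log2 ratio reached 1.40 (1.14 to 1.67) in Infl_Mono, where Sqle, Fdft1 and Fdps had ratios of 2.49, 2.39 and 2.23, on 5, 7 and 19 UMIs in CTRL. Macro, resident-like macrophages, had 257 and 230 CPM, a ratio of 0.16 (-0.16 to 0.49), so no difference was detectable at this depth. Neutro went the other way, with 214 CPM against 350 in CTRL and a ratio of -0.71 (-1.07 to -0.34). That value rested on 154 and 108 UMIs from 196 and 65 cells.

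What 5-azacytidine added to celecoxib was a small difference in these genes. The summed log2 ratio of COX2i + 5-AZA against COX2i was 0.06 (0.04 to 0.08), and its sign depended on the cells and members counted. Monocyte classes made up 53.2% of the monocytes and macrophages with 5-azacytidine and 7.56% with celecoxib alone. Insig1 was higher by 0.33 (0.29 to 0.37), whereas Sqle was lower by a log2 ratio of -0.32 (-0.39 to -0.26) and Lss by -0.36 (-0.50 to -0.22). Within the 9 classes with at least 50 cells in both libraries, Sqle was higher beyond the counting interval in 3 and lower in 2. Its highest ratio there was 0.68, in Infl_Mono, and its lowest -0.89, in NK_cells. In monocytes and macrophages together, Fdps, Fdft1 and Hmgcs1 had ratios of 0.05, 0.01 and -0.0029. The median gene detected in both libraries lay at -0.19, so that relative to it Insig1 was at 0.52, Sqle at -0.14 and Lss at -0.17. None of the 7 members was past 1.5-fold in either direction, where 7.94% of 10447 genes were higher and 16.5% lower. By class, TAM_Spp1 had the highest ratio at 0.31 (0.25 to 0.38), cDC2 0.28 and TAM_C1q 0.21. Monocyte_1, the class that held 3640 cells with 5-azacytidine and 394 with celecoxib alone, was lower, with 480 against 630 CPM and a ratio of -0.39 (-0.48 to -0.30), and all 7 members had a lower level there, 5 of them beyond the counting interval, where 43.3% of 8057 genes were higher. NK_cells had 487 against 627 CPM, on 50 cells with celecoxib alone. The summed level was thus higher with 5-azacytidine in these macrophage classes and cDC2, and lower in Monocyte_1.

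IRF3/7 against CTRL asks what interferon regulatory factors in the cancer cells did to the same genes in infiltrating cells. In monocytes and macrophages, Lss had a log2 ratio of -2.58 (-3.25 to -1.97) and Sqle -2.13 (-2.44 to -1.83). Fdps and Idi1 had -1.04 each, Hmgcs1 -0.97 and Fdft1 -0.88. Insig1 had 0.06 (-0.02 to 0.13). Thus 6 of 7 members were lower past 1.5-fold and none higher, but so were 46.2% of 10171 genes, against 12.6% higher. The median gene detected in both libraries lay at -0.52, and relative to it 2 of 7 members, Sqle and Lss, remained lower past 1.5-fold, while the summed level was at -0.04. Without Insig1 the summed level had a log2 ratio of -1.14, or -0.62 relative to the median gene, values computed after the share of Insig1 had been seen. Over all cells, the non-immune class included, Sqle had -0.39 (-0.50 to -0.28) and Lss -0.53 (-0.75 to -0.32).

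These libraries held different cells. Monocyte classes made up 91.3% of the IRF3/7 monocytes and macrophages and 1.83% of those in CTRL. Infl_Mono was the only class of the 9 with at least 50 cells in both, 4335 and 93. Within it the summed level was 193 CPM in IRF3/7 and 258 in CTRL, a ratio of -0.42 (-0.68 to -0.15). All 7 members had a lower level there, 3 of them beyond the counting interval, and 44.9% of 6921 genes were higher in that class. Those 3 were Hmgcs1 at 30.8 against 55.8 CPM, Fdps at 22.6 against 39.2 and Lss at 0.95 against 8.26, the last on 14 and 4 UMIs, while Insig1 had a log2 ratio of -0.06 (-0.44 to 0.34). In cDC2 the sum was 304 against 376 CPM, with Sqle at 21.4 against 50.3 CPM and Hmgcs1 at 67.9 against 75.4. In Myofibrobl, the class that holds non-immune cells, the sum was 936 against 950 CPM, a ratio of -0.02 (-0.07 to 0.03). Hmgcs1 was higher there, at 156 against 116 CPM, a ratio of 0.43 (0.29 to 0.56). The median gene detected in both libraries lay at -0.28 in Infl_Mono, -0.28 in cDC2 and -0.27 in Myofibrobl. Relative to it the summed level was at -0.14, -0.03 and 0.25 in these classes. Over genes with at least 200 UMIs in the class, the median lay at -0.09, -0.17 and -0.28 in the same order, so this placing depends on the genes taken.

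In the 3 classes with at least 50 cells in every library, Infl_Mono, cDC2 and Myofibrobl, the libraries had the same order: IRF3/7, CTRL, COX2i and COX2i + 5-AZA. Infl_Mono had 193, 258, 593 and 680 CPM. The cDC2 class had 304, 376, 786 and 957 CPM, and Myofibrobl 936, 950, 1318 and 1475 CPM. Counting intervals overlapped for IRF3/7 and CTRL in Myofibrobl, and for the 2 celecoxib libraries in Infl_Mono. Monocyte_1, TAM_H2Ab1 and DC3 had fewer than 50 CTRL cells. Monocyte_1 had 158 CPM in IRF3/7 and 630 in COX2i, TAM_H2Ab1 had 153 in IRF3/7 and 311 in COX2i + 5-AZA, and DC3 (CCR7+ DCs) 298 and 766 CPM in those libraries. NK_cells had 211 CPM in IRF3/7.

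Between classes, the members were highest in the non-immune class and in cDC1. By the median over libraries with at least 50 cells, the order began with cDC1 at 1138 CPM (2 libraries, both with celecoxib) and Myofibrobl at 1134 (range 936 to 1475). TAM_Spp1 had 656 (377 to 815), cDC2 581 (304 to 957), DC3 532 and TAM_cycling 495. NK_cells had 487, Monocyte_1 480, TAM_C1q 455, Ctsk_Macro 453 and Infl_Mono 425. The lowest were Neutro at 282, Monocyte_3 at 262, Macro at 243 and TAM_H2Ab1 at 232. Neighbours in this order overlapped in range throughout, except Myofibrobl above TAM_Spp1, and Monocyte_3, which had 1 library, above Macro. The order mixes libraries, since classes came from different sets of them. Within CTRL alone, Myofibrobl at 950 CPM stood above TAM_Spp1 at 377, cDC2 at 376, TAM_C1q at 242 and Macro at 230. T_CD8 and Mast, with too few cells, were left out.

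**Figure D3:**
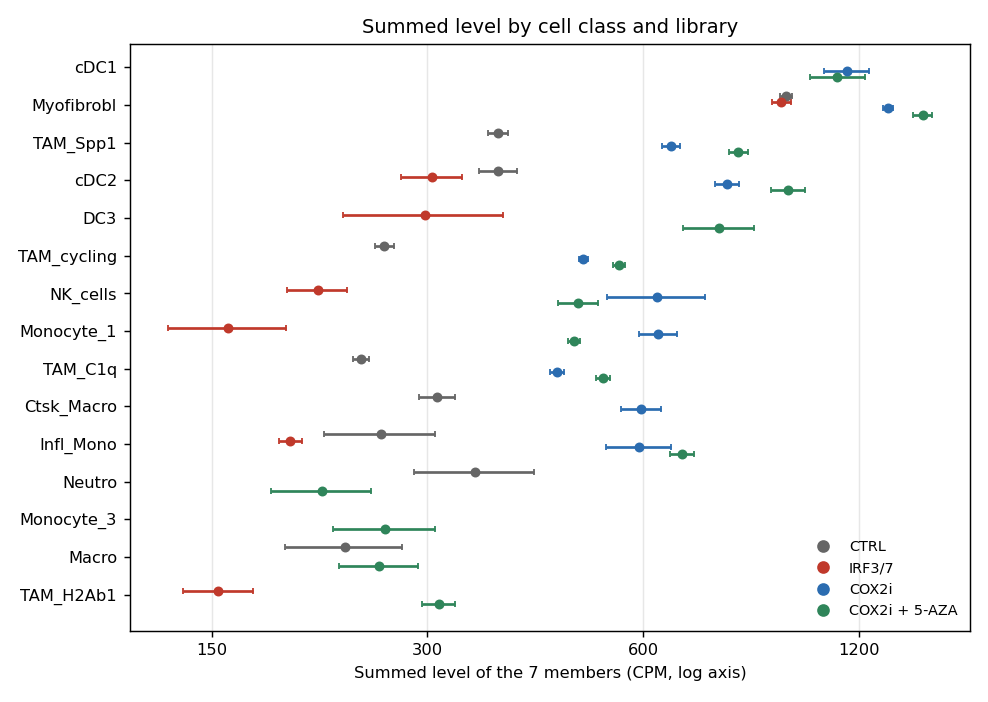
Summed level of the 7 members in each class with at least 50 cells, by library, in CPM on a log axis (bars are 95% exact Poisson intervals; classes are ordered by the median over libraries). Where CTRL and COX2i are both present, COX2i lies to the right, as in TAM_C1q at 455 against 242, and Myofibrobl reaches 1475 in COX2i + 5-AZA.

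Members differed in how far they varied between classes. Over the 14 classes seen in at least 2 libraries, the median level of Insig1 spanned a factor of 2.24, from 84.1 CPM in TAM_H2Ab1 to 188 in Myofibrobl. Sqle spanned a factor of 19.8, from 9.71 CPM in Macro to 192 in Myofibrobl. Fdps reached 453 CPM in cDC1 and was 47.2 in Macro. Idi1 was highest in DC3, at 66.6 CPM, with 104 in COX2i + 5-AZA and 28.9 in IRF3/7. Over the 6 enzymes the factor ran from 4.86 for Hmgcs1 to 19.8 for Sqle. Across 32 pairs of a class and a library with at least 100 cells, Pearson's r of log2(CPM + 1) was 0.96 for Fdps with Sqle and 0.56 for Lss with Insig1, the highest and lowest of the member pairs. Each r describes pairs that share libraries and depth, and carries no test.

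The genes whose level over those 32 pairs was most like the summed level were searched among 8147 genes with a median of at least 10 CPM. The first 10 non-members, of which 9 are named here, all belong to sterol or fatty acid synthesis or its control. Msmo1 (r = 0.97) and Cyp51 (0.96), which remove methyl groups from lanosterol and its products, came first, with Hsd17b7 (0.91) behind them. Scd2 (0.90), a fatty acid desaturase, Nsdhl (0.87) and Mvd (0.86) followed. The last were Srebf2 (0.84), which encodes SREBP2 itself, Sc5d (0.82) and Mvk (0.80).

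The other genes of sterol synthesis moved with the members under celecoxib. Of all 21 enzymes, 21 were higher in COX2i than in CTRL, 12 past 1.5-fold, where 6.31% of all genes were higher past that fold, and none lower. In that comparison 15 of 15 were higher once the 6 members were set aside, with 7 past 1.5-fold. Cyp51 had 38.1 CPM in CTRL, 16.6 in IRF3/7, 85.0 in COX2i and 77.6 in COX2i + 5-AZA. In COX2i + 5-AZA against CTRL 21 of 21 were higher and 10 past 1.5-fold, beside 7.64% of all genes. With 5-azacytidine against celecoxib alone, 2 of 21 were past 1.5-fold, both lower, beside 16.5% of all genes: Lbr, a sterol reductase of the nuclear envelope, at -0.65 and Acat2, the thiolase at the head of the pathway, at -0.63. In IRF3/7 against CTRL 15 of 21 were lower past 1.5-fold, beside 46.2% of all genes, with Lss at -2.58 and Hsd17b7 at -2.39 among the lowest. The median over these 21 was -0.85 beside -0.51 over all genes.

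**Figure D4:**
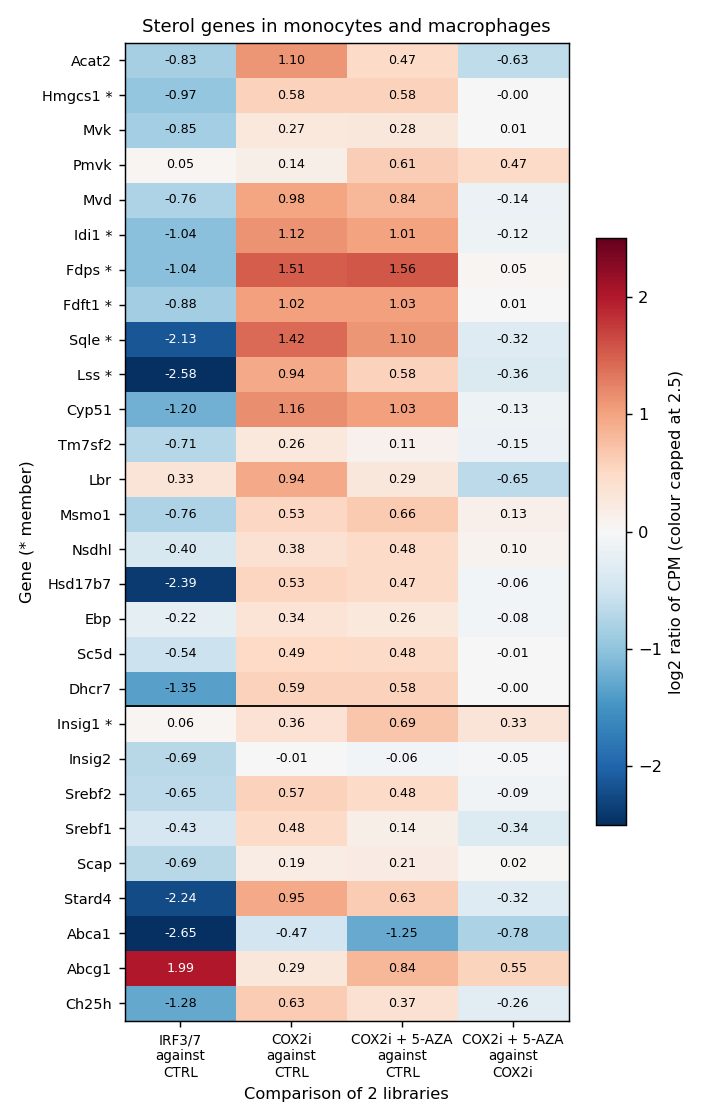
Log2 ratios of CPM in monocytes and macrophages for 19 of the 21 enzymes of sterol synthesis in pathway order (above the line) and 9 genes of control, transport and efflux (below), in 4 comparisons of 1 library with 1 library; asterisks mark members. The enzyme rows are positive throughout for celecoxib against CTRL, from 0.14 for Pmvk to 1.51 for Fdps.

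Few genes that control SREBP passed 1.5-fold, except in IRF3/7. Of 10, none was past it in COX2i against CTRL, where 6.31% of all genes were higher and 7.04% lower. In COX2i + 5-AZA against CTRL 1, Insig1 itself, was higher, where 7.64% of all genes were higher and 16.5% lower. Srebf2 had 121 CPM in CTRL, 77.6 in IRF3/7, 180 in COX2i and 169 in COX2i + 5-AZA. Srebf1, the lipogenic relative, had 50.8, 37.8, 70.9 and 56.1 CPM. Scap had 27.5, 17.02, 31.4 and 31.9 CPM, and Insig2 31.3, 19.5, 31.2 and 30.0. In IRF3/7, 5 of 10 were lower past 1.5-fold, near the 46.2% of all genes, with Mbtps1 at -1.21, Mbtps2 at -1.04 and Scap at -0.69, and the list's median of -0.54 was near the -0.51 of all genes. With 5-azacytidine against celecoxib alone none of the 10 was past that fold, where 7.94% of all genes were higher and 16.5% lower.

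Genes of uptake and transport went in both directions. Stard4, a sterol carrier, was lowest in IRF3/7 and higher in both celecoxib libraries than in CTRL, with 28.8 CPM in CTRL, 6.10 in IRF3/7, 55.6 in COX2i and 44.7 in COX2i + 5-AZA. The fatty acid and lipoprotein scavenger Cd36 was lower than in CTRL in the other 3 libraries, with 71.0, 9.58, 42.4 and 39.9 CPM. Of 12 uptake and transport genes with at least 200 UMIs, 2 were higher and 2 lower past 1.5-fold in COX2i, 3 and 4 in COX2i + 5-AZA and 3 and 5 in IRF3/7, each against CTRL. Over all genes the shares higher and lower were 6.31% and 7.04%, 7.64% and 16.5%, and 12.6% and 46.2%, so the 5 of 12 lower in IRF3/7 were near the background. The list's median log2 ratio was -0.18, -0.07 and -0.27, where all genes had 0.03, -0.15 and -0.51. Mylip, a ubiquitin ligase induced by sterols, was lower in COX2i at -0.84. Scarb1, a lipoprotein receptor, was higher at 0.59 in COX2i + 5-AZA against CTRL, with the endocytic receptor Lrp1 lower at -0.99 and the lysosomal exporter Npc1 at -0.94. In IRF3/7 the endosomal sterol carriers Stard3 (1.35) and Npc2 (1.01) were higher, and Lrp1 (-1.91) lower. Against celecoxib alone, 5-azacytidine went with higher Npc2 (0.68) and lower Lrp1 (-0.82).

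Export genes split in opposite directions. Abca1 had 502 CPM in CTRL, 79.97 in IRF3/7, 363 in COX2i and 210 in COX2i + 5-AZA. Abcg1 had 50.9, 202, 62.1 and 91.1 CPM. Ch25h, which makes 25-hydroxycholesterol, had 157 CPM in CTRL, 64.6 in IRF3/7, 244 in COX2i and 204 in COX2i + 5-AZA. In these pooled cells Abca1 was thus highest in CTRL, Abcg1 in IRF3/7 and Ch25h with celecoxib. Within Infl_Mono, Ch25h was instead highest in CTRL, with 411 CPM, 43.3 in IRF3/7, 290 in COX2i and 143 in COX2i + 5-AZA. In the other classes compared, Ch25h was higher in COX2i than in CTRL, from 0.21 in TAM_cycling to 2.32 in cDC2. Apoe, the lipoprotein of macrophages, had 28691 CPM in CTRL and 6492 to 8612 in the others. Nr1h3, encoding the sterol sensor LXR alpha, had 18.6 CPM in CTRL, 60.7 in IRF3/7, 9.87 in COX2i and 34.4 in COX2i + 5-AZA. Soat2, a cholesterol esterifying enzyme, was higher in IRF3/7 at 0.96 and lower with 5-azacytidine than with celecoxib alone at -0.76. Of the 9 genes of this list, 4 were higher and 3 lower past 1.5-fold in IRF3/7, 1 and 2 in COX2i and 2 and 2 in COX2i + 5-AZA, each against CTRL, with median log2 ratios of 0.33, -0.32 and -0.10. All genes had medians of -0.51, 0.03 and -0.15 in these comparisons, and in IRF3/7 12.6% were higher and 46.2% lower past 1.5-fold. The shares were 6.31% and 7.04% in COX2i, and 7.64% and 16.5% in COX2i + 5-AZA.

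Fatty acid synthesis, the branch under SREBP1, was higher with celecoxib but not to the same extent with 5-azacytidine. Of 12 genes with enough UMIs, 6 were higher and 1 lower past 1.5-fold in COX2i against CTRL, where 6.31% of all genes were higher and 7.04% lower, led by Fads2 at 2.15, Scd2 at 1.42 and Fasn at 1.19, with Lpin1 lower at -0.77. The list's median was 0.48 there, 0.15 in COX2i + 5-AZA and -1.64 in IRF3/7, each against CTRL. In COX2i + 5-AZA against CTRL 1 was higher, Fads2 at 0.75, and 1 lower, Scd1 at -1.57, counts near or below the 7.64% and 16.5% of all genes. Against celecoxib alone 5 of 12 were lower and none higher, where 16.5% of all genes were lower and 7.94% higher, with Fads2 at -1.40, Scd1 at -1.26 and Scd2 at -0.99 the lowest, and the list's median was -0.51 beside -0.19 over all genes. In IRF3/7, 9 of 12 were lower past 1.5-fold, beside 46.2% of all genes, with Fads2 at -4.54 on 5 UMIs, Fads1 at -3.10 and Fasn at -2.88, and Acss2, which makes acetyl-CoA from acetate, was higher at 0.76. The isoprenoid list was meant for genes that use the same precursors for other products. It also holds Cyb5r3 and Hmox1, which do not, so its counts and medians are not of isoprenoid use alone. The list had 0 of 8 past 1.5-fold in either celecoxib library against CTRL, with medians of -0.05 and -0.30. In IRF3/7, 5 of 8 were lower past 1.5-fold, as were 46.2% of all genes, and the list's median was -0.90 beside -0.51 over all genes. Fntb was at -1.81, Cyb5r3 at -1.45 and Fnta at -1.24, and Fntb was also lower with 5-azacytidine than with celecoxib alone, at -0.74.

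Other measures moved with the libraries as well. In monocytes and macrophages the summed monocyte markers were at 903 CPM in CTRL, 12032 in IRF3/7, 923 in COX2i and 2680 in COX2i + 5-AZA. The inflammatory markers were at 236, 10959, 395 and 1721 CPM, and the neutrophil markers at 134, 1209, 48.6 and 549. The macrophage markers were at 17322, 7772, 16247 and 13931 CPM, and the NK and T markers at 1.15, 19.0, 1.77 and 7.51. The cDC markers were at 704, 2092, 1230 and 3144 CPM, nearly all of it H2-Ab1, at 699, 2086, 1222 and 3128. The remaining cDC markers were at 0.10 to 8.72 CPM and had no common order of libraries. The part of these markers in the pooled ratios was not tested, and the ratios within classes are those given above. The summed level of 8 cell cycle markers in monocytes and macrophages was 991 CPM in CTRL, 138 in IRF3/7, 1878 in COX2i and 799 in COX2i + 5-AZA. Without TAM_cycling, the summed log2 ratio of the members was 0.89 for COX2i and 0.87 for COX2i + 5-AZA against CTRL. The members were high in the non-immune class, whose share of cells was 6.19% in CTRL, 2.72% in IRF3/7, 10.0% in COX2i and 1.59% in COX2i + 5-AZA. All 6 non-immune markers were detected in monocytes and macrophages of every library. Their sum there was 402, 71.4, 429 and 131 CPM, which is 2.66%, 0.585%, 1.81% and 0.614% of its level in the non-immune class. The same shares of that class's member RNA would amount to 25.3, 5.48, 23.9 and 9.05 CPM of the summed member levels of 278, 188, 510 and 531 CPM.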

How the data were processed

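UMI counts per gene and cell were deposited by the authors, who ran cellranger multi 7.1.0 with a mouse probe set (mm10) on fixed CD45+ cells and removed mitochondrial and ribosomal genes. Classes are the authors' clusters. In the deposited matrix of 12584 genes, 1201 of 34447 cells had 1000 genes or fewer, and they were kept. The authors describe a filter of more than 1000 genes per cell before the gene list was cut, which this count cannot check. Counts were summed per class and library. CPM carry exact Poisson intervals, and ratios exact conditional intervals (scipy 1.17.1, numpy 2.4.6). The code was run on simulated Poisson counts, which share the intervals' own assumption and hold no spread between cells or mice. With 1 library per group no test was run. Classes needed 50 cells. Calls used 1.5-fold and 200 UMIs over both libraries, and a level of 0 was replaced by 3 counts for a bound. The members and lists were chosen with earlier results of these data known. Named genes were the 7 members, 9 fixed sterol genes, up to 3 highest and 3 lowest per list past the fold, and the 10 genes most like the members. Some named genes are not reported here. No doublet caller was run here.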

Additional observations from a re-analysis of the deposited data

Results flagged for a closer look

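Directions opposite to those in monocytes and macrophages, and beyond counting error, were seen in 3 other classes. None of these differences between classes was tested, since each class had 1 library per group. In IRF3/7 against CTRL, Hmgcs1 had a log2 ratio of 0.43 (0.29 to 0.56) in Myofibrobl and -0.97 in monocytes and macrophages.

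In COX2i + 5-AZA against CTRL, Neutro had -0.71 for the summed level, -1.16 for Hmgcs1 and -0.89 for Insig1, where monocytes and macrophages had 0.93, 0.58 and 0.69. CTRL held 65 Neutro cells, with 22 UMIs of Hmgcs1 and 50 of Insig1.

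In COX2i + 5-AZA against COX2i, NK_cells had -0.37 for the summed level, -0.58 for Fdps and -0.59 for Insig1, where monocytes and macrophages had 0.06, 0.05 and 0.33. Myofibrobl had 0.30 for Idi1 and 0.23 for Sqle, where monocytes and macrophages had -0.12 and -0.32.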

How the results depend on the processing

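Values are log2 ratios of the summed level in monocytes and macrophages. Relative to the median gene (median-of-ratios size factors) they were -0.044 for IRF3/7, 1.10 for COX2i + 5-AZA (both against CTRL) and 0.25 for COX2i + 5-AZA against COX2i, and 2 members instead of 6 were lower past 1.5-fold in IRF3/7. In the same order, cells with more than 2000 genes gave -0.45, 0.99 and 0.10, equal weight per cell gave -0.72, 0.83 and -0.033, and the control library's class mix gave -0.42 (Infl_Mono only), 1.11 and 0.19. For IRF3/7, COX2i and COX2i + 5-AZA against CTRL and COX2i + 5-AZA against COX2i, all cells gave -0.22, 0.77, 0.60 and -0.18. Thinning to 2000 UMIs, which left out 187 to 975 shallower cells per library, gave -0.68, 0.84, 0.83 and -0.012. Leaving out TAM_cycling gave 0.87 for COX2i + 5-AZA against CTRL and -0.017 against COX2i. Chosen after seeing the data, the sum without Insig1 gave -1.14, 1.11, 1.06 and -0.052, and with size factors 1.11, 1.23 and 0.13 in the last 3. COX2i + 5-AZA against COX2i thus changed sign under 5 alternatives; the cause was not tested. For single members, 219 of 224 values kept their direction or had no direction beyond counting error. The others were in COX2i + 5-AZA against COX2i: Idi1 at 0.068 with size factors and 0.095 with the control class mix, and Fdps at -0.025 with equal weight per cell, -0.26 in all cells and -0.0043 without TAM_cycling. The 10 genes most like the members were shared in 8 cases with monocyte and macrophage classes alone and in 10 with Spearman's rho. No paired analysis was possible because each group was 1 library. Depth limited Lss most, with 23 UMIs in IRF3/7.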
